A study of Mus musculus with 7 samples.

Results

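Gfap-high fibrous astrocytes were picked out of single-cell RNA sequencing data of mouse ventromedial prefrontal cortex (PFC) and motor cortex (MC), cell by cell, from raw counts of unique molecular identifiers (UMIs, which count captured RNA molecules). A member had at least 3 UMIs of Gfap and at least 1 UMI of 3 or more of the 6 astrocyte genes Gja1, Aqp4, Slc1a3, Ntsr2, Aldoc and Cldn10. It had no UMI of Slc17a7, Gad1 or Gad2, which mark neurons, and fewer than 2 UMIs each of C1qa, Cldn5 and Mog, which mark microglia, endothelium and oligodendrocytes. This gave 137 of 32985 cells, or 0.415%. The same rule with Gfap at 0 to 2 UMIs gave 3351 other astrocytes, so that members made up 3.93% of 3488 astrocytes. In the PFC 133 of 2593 astrocytes were members and in the MC 4 of 895.

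DTA animals (Opn4-Cre/+; Brn3b-zDTA/+) carry a Cre-dependent diphtheria toxin allele at Brn3b and are described as ablated of intrinsically photosensitive retinal ganglion cells, the melanopsin neurons of the retina that report light to the brain. The allele can act in cells that use both Opn4 and Brn3b, and the retina was not measured here. Controls (CTRL; Opn4-Cre/+; Brn3b-+/+) carry the same Cre driver and are described as keeping these cells. All mice were of strain B6129SF1/J, aged 30 postnatal days, and lived in a cycle of 12 h of light and 12 h of darkness. The MC had 1 library of each genotype, and the PFC had 3 DTA and 2 CTRL libraries, each described by the labels as coming from a brain, with no statement on pooling.

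Astrocytes are glial cells that clear glutamate and potassium around synapses, supply neurons with metabolites and line blood vessels and the brain surface. Protoplasmic astrocytes of the grey matter normally hold little glial fibrillary acidic protein, the intermediate filament encoded by Gfap. Fibrous astrocytes of the white matter and the astrocytes that form the border under the pia hold much more of it, and astrocytes that react to injury raise it. Myoc encodes myocilin, a secreted glycoprotein best known from the eye, Aqp4 the water channel of astrocyte endfeet, and Vim vimentin, a second intermediate filament that assembles with the product of Gfap.

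The promoters of the gene that selected the cells and of the marker detected mostly in them are shown because their transcripts appeared together. They come from RefSeq's GRCm38.p6 and run from 250 bases before the start of the gene to 50 bases after it, on the gene's own strand. Gfap lies on the minus strand at chr11:102897151-102897450, with capitals at a match to TTCNNNGAA, the motif of STAT factors. Myoc lies on the plus strand at chr1:162638900-162639199, with capitals at TATAAA, the TATA box motif. Motifs of NFI and AP-1 factors were also looked for and were in neither promoter. The E-box motif CANNTG, held by 72.1% of promoters, was in that of Myoc only and is not in capitals. None of the motifs looked for was in both promoters.
Gfap: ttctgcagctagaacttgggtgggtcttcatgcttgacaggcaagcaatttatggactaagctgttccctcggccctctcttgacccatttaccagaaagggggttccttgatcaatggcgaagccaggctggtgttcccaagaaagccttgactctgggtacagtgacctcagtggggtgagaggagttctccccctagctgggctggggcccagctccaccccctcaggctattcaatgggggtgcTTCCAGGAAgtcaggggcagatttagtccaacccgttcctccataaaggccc
Myoc: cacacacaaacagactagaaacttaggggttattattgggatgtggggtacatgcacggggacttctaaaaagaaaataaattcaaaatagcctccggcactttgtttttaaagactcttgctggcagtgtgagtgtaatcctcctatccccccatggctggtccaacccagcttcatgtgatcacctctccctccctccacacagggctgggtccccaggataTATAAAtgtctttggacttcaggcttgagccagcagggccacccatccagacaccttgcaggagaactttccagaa
Read on both strands, TTCNNNGAA was held by 8.47% of the promoters of 27025 genes, and TATAAA by 14.2%. Of the 15 genes named below as higher in members, 11 had a promoter in that table. TTCNNNGAA was in 0 of these 11 and TATAAA in 1, that of Vim.

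Libraries held 6180059 to 30972905 UMIs in 1936 to 9879 cells. Member sums ranged from 13411 UMIs in PFC DTA replicate 1 to 238253 in PFC DTA replicate 3, and the MC members together held 15254. Members were deeper than the other astrocytes of their library in 7 of 7 libraries, with medians of 1226 to 5810 UMIs a cell against 998 to 2807. PFC DTA replicate 3 stood apart: it held 60 of the 133 PFC members, and its other astrocytes had 172 CPM (UMIs per 1000000 UMIs of the same cells) of the immediate early gene Fos against 1153 to 2108 CPM in the other PFC libraries. Between 7 and 92 cell barcodes were shared by each of 21 pairs of libraries. The barcodes of 6 members also occurred in another library, and no barcode was that of a member in more than 1 library.

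Members were found in every library, at shares of astrocytes that ranged widely. In the PFC they made up 2.88%, 4.53% and 12.96% of astrocytes in DTA replicates 1 to 3, against 3.97% and 2.78% in CTRL replicates 1 and 2. The exact Clopper-Pearson interval of DTA replicate 3, 10.04% to 16.4% at 95% confidence, lay above the intervals of the other 4 PFC libraries, which reached 7.18% at most and cover counting error only. The groups overlapped, since DTA replicate 1 lay between the CTRL libraries. The mean share was 6.79% ± 5.41 in DTA (SD, n = 3) and 3.37% ± 0.840 in CTRL (SD, n = 2), and the difference of 3.42 percentage points did not pass an exact two-sided permutation test (p = 0.4, with 0.2 the smallest p the design allows). Without DTA replicate 3 the difference was 0.332 points, and with every cell thinned to 2000 UMIs it was -3.64 points, with only 3 astrocytes left in DTA replicate 1.

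In the MC, the share was 0.877% in the DTA library, or 3 of 342 astrocytes, and 0.181% in the CTRL library, or 1 of 553. Both MC values lay below all 5 PFC values. The MC mean was 0.529% ± 0.492 (SD, n = 2) and the PFC mean 5.42% ± 4.28 (SD, n = 5), a difference of -4.89 points. Its two-sided p in an exact permutation test over libraries was 0.0952, which no split of 2 against 5 can undercut, and the comparison was chosen after the data were seen. Without PFC DTA replicate 3 the difference was -3.01 points. Each area was cut out by hand, and the white matter or surface held by each sample was not measured.

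**Figure D1:**
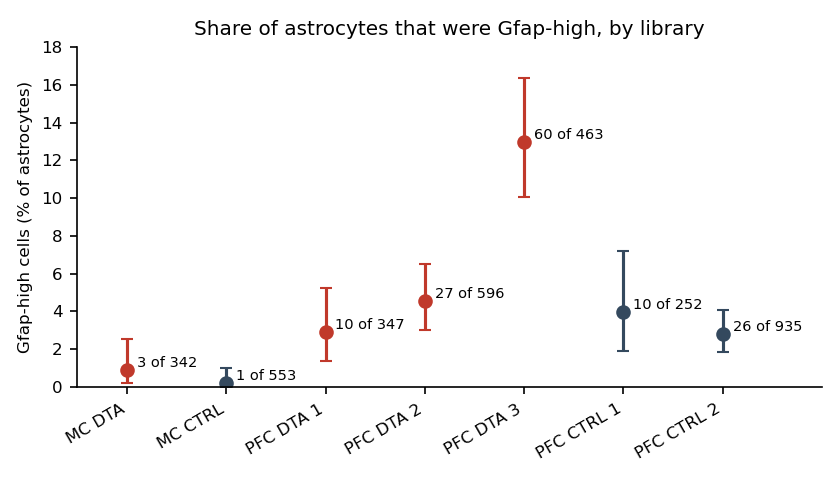
Share of astrocytes that were Gfap-high, in percent, for each library, with exact 95% intervals as bars and the numbers of cells beside the points (red DTA, dark CTRL). The 2 MC libraries sit at 0.877% and 0.181%, and PFC DTA replicate 3 sits at 12.96%, above the other libraries.

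Gfap chose the members, so its level is a description. Members had 3 to 53 Gfap UMIs with a median of 7. In sums per library Gfap reached 5742, 2713 and 3647 CPM in the members of PFC DTA replicates 1 to 3 and, in CTRL, 1952 and 3884 CPM in replicates 1 and 2, against 40.3 to 126 CPM in the other astrocytes. Just inside the threshold 28 cells had 3 UMIs and 21 had 4, and just outside it 53 astrocytes had 2. Of 191 cells of any kind with 3 or more Gfap UMIs, 54 missed the rest of the rule, 13 through too few astrocyte genes and 41 through an excluded marker. In excitatory neurons of the PFC, which should lack it, Gfap was detected in 0.729% of 6857 cells with a median of 6469 UMIs.

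The other marker genes of the label, Myoc, Aqp4 and Vim, were detected in members. Myoc stood at 1715, 747 and 1691 CPM in the members of PFC DTA replicates 1 to 3, with no row in CTRL replicate 1 and at 1295 CPM in CTRL replicate 2, against 0 to 16.9 CPM in other astrocytes. The tables of PFC CTRL replicate 1 and MC CTRL have no Myoc row. It was counted as 0 there, but the value may be missing, since a filter on genes before deposit could have removed it. Myoc was detected in 43.6% of PFC members, or 47.2% of the 123 whose tables list it, which had a median of 3009 UMIs, in 0.447% of other astrocytes, with a median of 1470 UMIs, and in 0.146% of excitatory neurons. With every cell thinned to 2000 UMIs and shallower cells left out (42 of 133 members and 1694 of 2460 other astrocytes), Myoc was still detected in 39.6% of members and 0.261% of other astrocytes. Vim was detected in 52.6% of members, 8.29% of other astrocytes and 1.72% of excitatory neurons. Aqp4, which is part of the rule, was detected in 85.7% of members, 52.2% of other astrocytes and 0.860% of excitatory neurons.

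Myoc had counts in the members of 4 of the 5 PFC libraries and so missed the filter on low counts. In the fit without that filter, edgeR's quasi-likelihood test put it higher in members by 7.57 on the log2 scale (SE 0.33, adjusted p = 4.1e-111). It was higher in members than in the other astrocytes in 4 of the 5 PFC libraries, and CTRL replicate 1, with no row, entered as 0 in both.

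Levels of several genes followed the Gfap count within the astrocytes, given here with no test. Pooled over the PFC, Myoc stood at 2.55, 21.2 and 26.6 CPM in cells with 0, 1 and 2 Gfap UMIs, at 487 CPM in cells with 3 to 4, at 425 CPM in cells with 5 to 9 and at 2077 CPM in the 50 cells with 10 or more. Vim went through 49.4, 92.9, 124, 248, 321 and 706 CPM over the same 6 classes, and Fxyd6, a regulator of the sodium pump, through 75.4, 112, 186, 684, 878 and 1979 CPM. Slc7a10, a transporter of serine and glycine, took the opposite course with 572, 411, 408, 248, 151 and 39.9 CPM. Gria2, an AMPA receptor subunit, stood at 850, 621, 390, 393, 359 and 84.3 CPM. The glutamate transporter Slc1a3 stood at 2737, 2509, 2259, 1974, 2171 and 1029 CPM. The gap junction gene Gja1 did not follow the count, with 1751, 1832, 1559, 1812, 1831 and 1296 CPM. Median depth also moved, with 1447 UMIs in cells without Gfap and 4695 UMIs in cells with 10 or more. The mix of libraries moved too. PFC DTA replicate 3 held 326 of the 2232 cells without Gfap and 42 of the 85 with 5 or more Gfap UMIs. The part of depth and of library in these levels was not tested.

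**Figure D2:**
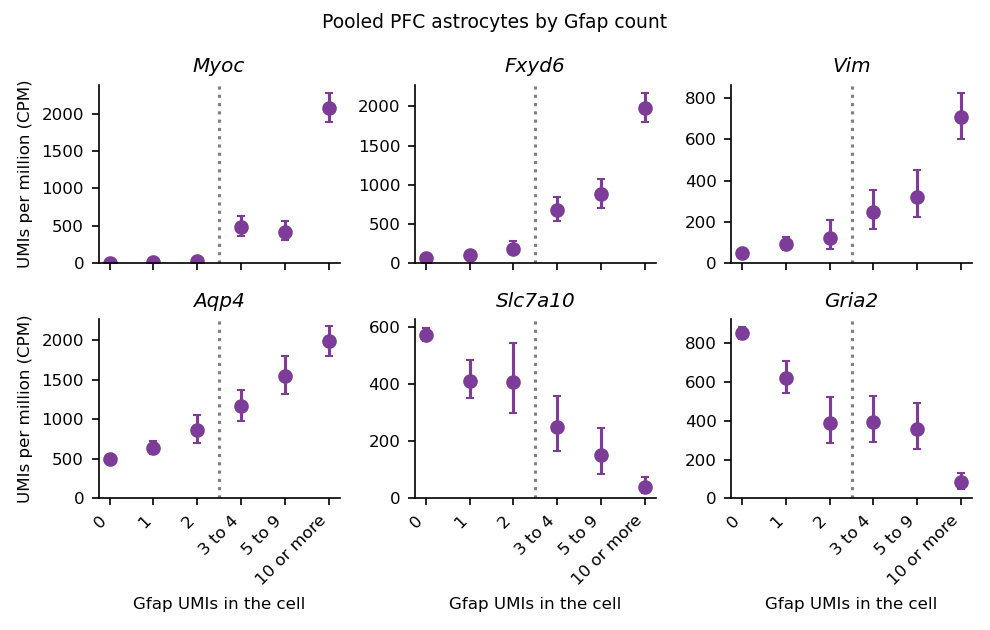
Level of 6 genes in CPM, pooled over PFC astrocytes with 0, 1, 2, 3 to 4, 5 to 9 and 10 or more Gfap UMIs, with exact Poisson 95% intervals; the dotted line is the membership threshold. Myoc reaches 2077 CPM and Slc7a10 falls to 39.9 CPM in the class with the most Gfap.

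Members were not uniform. Of the PFC members 58 had Myoc, namely 5 of 10, 9 of 27 and 30 of 60 in DTA replicates 1 to 3 and 14 of 26 in CTRL replicate 2, and 75 had none, of which 10 came from CTRL replicate 1, whose table has no Myoc row. Members with Myoc had a median of 11 Gfap UMIs and those without it a median of 5, at median depths of 4092.5 and 2991 UMIs. Slc6a6, the taurine transporter, stood at 389 CPM in members with Myoc, 76.7 CPM in members without it and 7.93 CPM in other astrocytes. Serpinf1, which encodes the secreted factor PEDF, stood at 492, 204 and 10.9 CPM in these 3 classes, and Cidea, a protein of lipid droplets, at 155, 25.6 and 2.04 CPM. Slc7a10 stood at 23.4, 209 and 554 CPM and Slc1a3 at 960, 2078 and 2705 CPM.

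Members without Myoc thus lay between members with Myoc and the other astrocytes for these 5 genes. The order did not hold for every gene. Slc1a2, a glutamate transporter, stood at 4603, 6112 and 3995 CPM in the same 3 classes, and the metallothionein gene Mt3 at 6031, 6815 and 4562 CPM. Id3 stood at 3713, 3237 and 1062 CPM, and Fos stood at 3128, 1431 and 1360 CPM. The genes named below as higher or lower were chosen over all members, so their direction in members without Myoc is a description that the choice largely fixes. Of the 15 named higher genes 8 lay above the other astrocytes in members without Myoc in all 5 libraries, 6 in 4 libraries and Gdf10 in 3, a comparison chosen after the data were seen. In the 65 members without Myoc whose tables list it, Serpinf1 stood at 229 CPM, Slc6a6 at 71.1 CPM, Cidea at 20.3 CPM and Slc7a10 at 208 CPM.

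**Figure D3:**
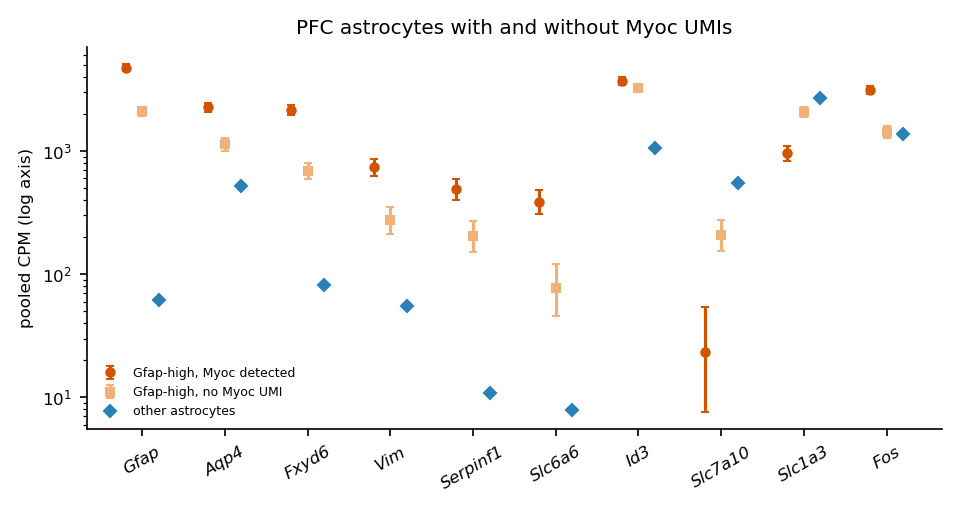
Pooled CPM on a log axis of 10 genes in PFC members with Myoc (58 cells), members without a Myoc UMI (75 cells) and other astrocytes, with exact Poisson 95% intervals for the members. Serpinf1 stands at 492, 204 and 10.9 CPM and Slc7a10 at 23.4, 209 and 554 CPM in these classes.

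Against the other astrocytes of the same PFC libraries, members had more Serpinf1, Fxyd6, C4b and Vim and less Igfbp2 and Slc7a10. The cells were chosen on 13 genes, which were left out of the tests. Among the 4664 genes tested in the 5 PFC libraries, 328 were higher in members (7.03%) and 390 lower (8.36%), 15.4% in all, at an adjusted p of 0.05 in edgeR with library as a block. CPM was higher in members in all 5 libraries for 8.28% of these genes and lower in all 5 for 14.6%. With the other astrocytes matched to the members in UMIs per cell only 701 genes were tested, and 126 were higher and 111 lower. Of all 718 calls 260 could be tested there, and 196 were called again. All 260 kept their direction, which the shared cells and the choice of called genes largely fixed in advance. Higher and lower genes numbered 226 and 203 without PFC DTA replicate 3 and 169 and 241 without PFC DTA replicate 2.

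Of the named higher genes, Serpinf1, Islr, Igfbp5, Gdf10 and C4b encode secreted proteins. Serpinf1 stood at 746, 311 and 357 CPM in the members of DTA replicates 1 to 3 and at 79.1 and 432 CPM in those of CTRL replicates 1 and 2, against 19.7, 9.36, 7.71, 5.26 and 15.1 CPM in the other astrocytes of these libraries. Every member value lay above every value of the other astrocytes, and the log2 difference was 5.02 (SE 0.27, edgeR adjusted p = 9.8e-76). Islr, a secreted leucine-rich repeat protein, averaged 123 ± 65.2 CPM in members and 5.37 ± 3.80 CPM in other astrocytes (SD, n = 5 each). Igfbp5, which binds insulin-like growth factors, averaged 481 ± 227 CPM in members and 64.5 ± 15.98 CPM in other astrocytes (SD, n = 5 each). Gdf10, a ligand of the BMP family, was higher by 2.95 on the log2 scale (SE 0.51, edgeR adjusted p = 3.4e-07), on 21 UMIs in all members, and DESeq2 gave it no adjusted p. C4b, complement component 4, averaged 162 ± 64.7 CPM in members and 13.3 ± 12.5 CPM in other astrocytes (SD, n = 5 each; log2 difference 3.97).

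Fxyd6, Slc6a6, Tnfrsf21, Kcne1l and Grin3a, also named as higher, encode membrane proteins. Fxyd6 stood at 1491, 1352 and 1427 CPM in the members of DTA replicates 1 to 3 and at 791 and 1662 CPM in those of CTRL replicates 1 and 2, against 121, 53.3, 69.4, 21.1 and 140 CPM in the other astrocytes. The classes did not overlap and differed by 4.19 on the log2 scale (SE 0.19, edgeR adjusted p = 3.0e-101). Excitatory neurons also express Fxyd6, with a UMI in 76.4% of cells, so that it marks members among astrocytes only. On the log2 scale Slc6a6 was higher by 4.83 and Tnfrsf21, the death receptor DR6, by 3.53. Kcne1l, a potassium channel accessory subunit, was higher by 2.93 and Grin3a, an NMDA receptor subunit, by 2.73. Each was higher in 5 of 5 libraries, which the naming rule requires.

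Among genes that act inside the cell, Vim stood at 224, 498 and 529 CPM in the members of DTA replicates 1 to 3 and at 264 and 583 CPM in those of CTRL replicates 1 and 2, against 33.1 to 78.7 CPM in the other astrocytes. The log2 difference was 3.18 (SE 0.20, edgeR adjusted p = 7.6e-54). Cidea was higher by 5.35, on 39 UMIs in members, and Padi2, which converts arginine to citrulline in proteins, by 3.56. The Padi2 level was highest in DTA replicate 1, with 522 CPM against 43.2 to 105 CPM in the members of the other libraries. That library had the smallest member sum of the PFC, 13411 UMIs, so its high level stands for few UMIs. The small heat shock protein gene Hspb8 was higher by 2.91 and Prkag2, a subunit of the energy sensor AMPK, by 2.81.

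The 10 named lower genes were led by Igfbp2. Igfbp2, another binder of insulin-like growth factors, had 0, 8.89 and 25.2 CPM in the members of DTA replicates 1 to 3 and 0 and 21.6 CPM in those of CTRL replicates 1 and 2, against 152, 323, 199, 177 and 245 CPM in the other astrocytes. The classes did not overlap, and the log2 difference was -3.66 (SE 0.37, edgeR adjusted p = 1.7e-20). Igfbp5 and Igfbp2 thus differed in opposite directions. Slc7a10 had 74.6, 44.5 and 155 CPM in the members of DTA replicates 1 to 3 and 211 and 64.7 CPM in those of CTRL replicates 1 and 2, against 427 to 693 CPM, a log2 difference of -2.38 (SE 0.24, edgeR adjusted p = 1.5e-20).

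Fzd2, a Wnt receptor, differed by -2.79 and Wnt7b, a Wnt ligand, by -2.23. The remaining named genes were Pde10a, a phosphodiesterase (-2.71), Eogt, a glycosyltransferase of the endoplasmic reticulum (-2.56), Plcb1, a phospholipase C (-2.32), Mfsd2a, a carrier of lysophospholipids (-2.31), Grin2c, an NMDA receptor subunit (-2.27), and Smim3, a small membrane protein (-2.25). Apart from Slc7a10 and Grin2c, each of the 10 named lower genes rested on 6 to 12 UMIs in members. In edgeR the Pde10a call was lost without the library block (adjusted p = 0.185), the Plcb1 call without DTA replicate 3 (0.0585) and in thinned cells (0.241), and the Smim3 call in thinned cells (0.359). Among the named higher genes the Grin3a call was lost in thinned cells (edgeR adjusted p = 0.109).

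**Figure D4:**
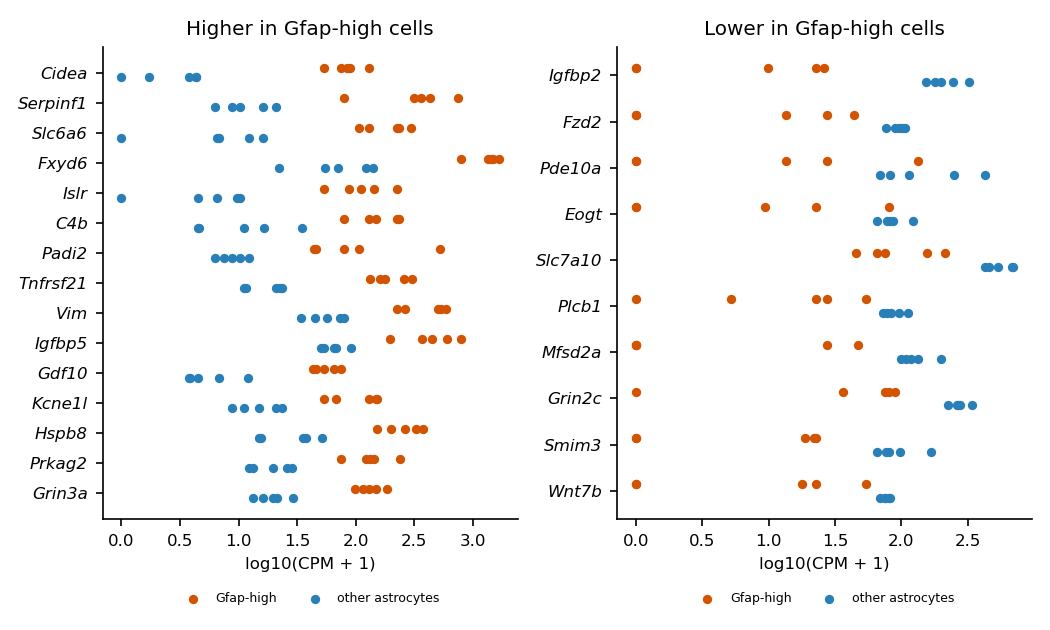
Level of the 15 named higher genes (left) and 10 named lower genes (right) as log10(CPM + 1) in each of the 5 PFC libraries, orange for Gfap-high and blue for other astrocytes. In each library the orange value lies above its blue value on the left and below it on the right, as the naming rule requires.

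Gene lists are given by the members of a list that passed the filter on low counts, beside a median log2 difference of -0.09 and shares of 7.03% higher and 8.36% lower over all 4664 genes. These lists were drawn up with earlier results of the same data known, and a gene that is high in members only can pass the filter through them, so the counts describe and do not test. Of 22 genes of fibrous and pial astrocytes 11 passed, with a median of 1.65, and 8 were higher and 0 lower. Fabp7, a fatty acid carrier of radial glia and astrocytes, averaged 4983 ± 1084 CPM in members and 855 ± 235 CPM in other astrocytes (SD, n = 5 each). S100a6, Fxyd1 and Cpe, a peptide-processing enzyme, were also higher, by 1.01, 1.55 and 1.65 on the log2 scale. Crym, Hopx and Mfap3l did not pass the test, at 0.08, 0.20 and 0.22.

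Of 24 genes of grey matter astrocytes 22 passed, with a median of -0.70, and 11 were lower and 2 higher. Mfge8, which tags debris for uptake, averaged 617 ± 110 CPM in members and 1956 ± 148 CPM in other astrocytes (SD, n = 5 each). Luzp2 (-1.69), Phkg1, a subunit of phosphorylase kinase (-1.73), and Slc6a11, a GABA transporter (-0.92), were also lower, on the log2 scale. The 2 that were higher were Kcnj10, the potassium channel Kir4.1 (0.71), and Slc1a2, the main glutamate transporter (0.47).

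The 20 genes that handle glutamate, potassium and water were divided, with 5 higher and 7 lower among the 19 that passed and a median of -0.15. Slc38a1, a glutamine transporter, averaged 501 ± 145 CPM in members and 89.1 ± 31.1 CPM in other astrocytes (SD, n = 5 each). Mlc1, a membrane protein of endfeet, was higher by 1.29, and the connexin gene Gjb6 was lower (-1.29). Slc1a3, of the rule and so not tested, stood at 1443 ± 295 CPM in members and 2620 ± 423 CPM in other astrocytes (SD, n = 5 each).

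Of 20 genes of intermediate filaments and cytoskeleton 14 passed, with 4 higher, 2 lower and a median of 0.03. Plec, which links filaments to one another and to membranes, was higher by 2.28, and the tubulins Tubb2a (-0.92) and Tubb2b (-0.74) were lower. Of 38 genes of reactive astrocytes only 5 passed, and 4 were higher: Vim, C4b, the class I histocompatibility gene H2-D1 (1.64) and the protease inhibitor Serpina3n (1.24). The median of the 5 was 1.64, and S100a10 did not pass the test. Of the S100 family S100a6 was higher and S100b lower (-1.70) among 6 that passed, with a median of 0.33. None of the 3 metallothioneins passed the test, and their median was 0.38.

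Of 22 genes of lipid carriers and sterol synthesis 21 passed, with 6 higher, 2 lower and a median of -0.07. Those higher were Fabp7, the desaturase Scd2 (1.12), Fabp5 (0.93), Prdx6 (0.81), Apoe (0.69) and Hmgcs1 (0.63). Ptgds was lower (-1.21), yet lay above the other astrocytes in 2 of 5 libraries and differed by 0.051 in thinned cells. Of 30 matrix and secreted proteins 19 passed, with 5 higher, 8 lower and a median of -0.38. The proteoglycan gene Ncan was higher by 1.09 and the protease inhibitor Timp4 was lower (-1.25).

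Of 36 transcription factors 27 passed, with 3 higher (11.1%), 4 lower (14.8%) and a median of -0.21, shares not far from those over all genes. All 3 that were higher encode inhibitors of DNA binding: Id1, Id3 (1.72) and Id4 (0.60). Id1 averaged 520 ± 170 CPM in members and 137 ± 40.6 CPM in other astrocytes (SD, n = 5 each). Id3 stood at 4399, 3540 and 3165 CPM in the members of DTA replicates 1 to 3 and at 3771 and 4295 CPM in those of CTRL replicates 1 and 2, against 821 to 1532 CPM in the other astrocytes. The homeobox genes Emx2 (-2.02), Dbx2 (-1.62) and Lhx2 (-0.63) and the Notch target Hes5 (-0.98) were lower. Of 37 genes of BMP, Notch, Hedgehog and Wnt signalling 16 passed, with 4 higher (25.0%), 2 lower (12.5%) and a median of 0.12, the lower share being near that over all genes. The same 3 Id genes were joined by the BMP receptor Bmpr1a (1.95), and the 2 lower were Fzd2 and Hes5.

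Several genes that tissue dissociation is known to induce and many ribosomal protein genes were higher in members. Of 24 immediate early and dissociation genes 16 passed, with 4 higher, 0 lower and a median of 0.88. Egr1 averaged 365 ± 118 CPM in members and 112 ± 65.4 CPM in other astrocytes (SD, n = 5 each), and Fosb, Ppp1r15a and Klf4 were higher by 1.72, 1.19 and 1.03. Of 80 ribosomal protein genes tested 55 were higher and 0 lower, but the number higher was 18 without DTA replicate 2, 17 without the library block, 7 with all 7 libraries and 2 without a filter on low counts. Ribosomal protein genes took 5.65% to 9.15% of member UMIs and 3.58% to 5.75% of those of other astrocytes in the PFC. Of 12 mitochondrially encoded genes that passed, 1 (mt-Co2, 0.54) was higher, with a median of 0.36. The part of dissociation, depth or RNA content in the other differences was not tested.

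Markers of other cell types were summed per list. The rule had refused cells with markers of neurons, microglia, endothelium and oligodendrocytes in both classes. Low sums for these types were thus partly fixed in advance. Over 12 lists, the summed level exceeded that of the other astrocytes in all 5 PFC libraries for 1 list only, olfactory ensheathing glia, with 3794 to 6250 CPM in members against 870 to 1447 CPM. Its sum is made mostly of Fabp7, and 4 of its 9 markers, Frzb, Sox10, Mybpc1 and Prss56, were at 0. The endothelial list reached 0 to 74.6 CPM in members and 14.0 to 46.1 CPM in other astrocytes, with 5 of its 10 genes at 0. The fibroblast and meninges list reached 26.4 to 129 CPM against 36.5 to 436 CPM. Of its 10 genes 5, Dcn, Lum, Col3a1, Igf2 and Ogn, were at 0. Summed levels exceeded those of the other astrocytes in 3 of 5 libraries for the endothelial, microglial and neural stem cell lists. They did so in 2 libraries for the ependymal list and in 0 or 1 for each remaining list.

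Ependymal cells, which line the ventricles, also express some astrocyte genes. Their list reached 74.6 to 159 CPM in members and 74.9 to 140 CPM in other astrocytes. Of its 10 genes 4, Ccdc153, Tmem212, Rsph1 and Dnah12, were at 0. Neural stem cell and neuroblast genes reached 125 to 373 CPM against 109 to 297 CPM, with 3 of 12, Dcx, Top2a and Nes, at 0. Pericyte genes reached 0 to 80.1 CPM against 96.5 to 173 CPM, and genes of oligodendrocyte precursors 52.7 to 193 CPM against 252 to 372 CPM. Excitatory neuron genes reached 211 to 1165 CPM against 275 to 2129 CPM and were below the other astrocytes in 5 of 5 libraries. Inhibitory neuron genes reached 52.7 to 216 CPM against 54.4 to 333 CPM, oligodendrocyte genes 264 to 651 CPM against 570 to 989 CPM, and microglial genes 64.7 to 373 CPM against 68.4 to 287 CPM. Blood genes reached 298 to 516 CPM against 354 to 8529 CPM, with the highest value in the other astrocytes of PFC DTA replicate 3. A doublet caller marked 1 of the 137 members, 77 of the 3351 other astrocytes and 1116 of all 32985 cells. The rule had already refused cells with markers of other types, so a low count in members was partly fixed in advance.

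Within members, the PFC genotypes differed in few genes. Of 856 genes tested 2 were higher in DTA (0.234%) and 0 lower in edgeR, with 50 genes at an unadjusted p under 0.05, and DESeq2 called 0. CPM of the 2 genotypes did not overlap for 164 of the 856 genes, or 19.2%, with DTA above CTRL for 57 (6.66%) and below it for 107 (12.5%). Splits of 3 against 2 libraries separate the groups at a rate of 0.2 without any effect, so that share is no sign of one. The class by genotype term, which asks whether members and other astrocytes differ in the genotype effect, was called for 1 of 6262 genes (0.016%), the haemoglobin gene Hbb-bs.

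The ribosomal protein gene Rps29, which is outside the naming rule and was chosen after its values were seen, had 1939, 3006 and 1696 CPM in DTA replicates 1 to 3, against 897 and 691 CPM in CTRL replicates 1 and 2. The genotypes did not overlap, and the log2 difference was 1.56 (SE 0.33, edgeR adjusted p = 0.0025). Other astrocytes also had more in DTA, with means of 1233 CPM in DTA and 591 CPM in CTRL, and the difference between the classes was 0.36 on the log2 scale (SE 0.48, edgeR adjusted p = 1.0). Hes1, a transcriptional repressor driven by Notch, had 0, 676 and 264 CPM in DTA replicates 1 to 3, against 105 and 64.7 CPM in CTRL replicates 1 and 2. The genotypes overlapped, and the log2 difference of 2.32 (SE 0.58, edgeR adjusted p = 0.0446) rested on 139 UMIs in DTA and 7 in CTRL. The class by genotype term for Hes1 was 1.78 (SE 0.66, edgeR adjusted p = 1.0). That term was called for Hes1 when the other astrocytes were matched in UMIs per cell and when DTA replicate 1 was left out. Leaving out DTA replicate 1, DTA replicate 2 or either CTRL library ended both calls. Without CTRL replicate 2 the calls were Tsc22d3 and Myoc, for which CTRL replicate 1 has no row, and leaving out DTA replicate 3 gave 6 calls, namely Rps29, Rps21, Rps27, Rpl35, Rpl38 and Rpl37.

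Other genes with small p-values did not pass adjustment. Btg2, an antiproliferative gene that dissociation induces, had 149, 445 and 348 CPM in DTA replicates 1 to 3, against 105 and 108 CPM in CTRL replicates 1 and 2 (adjusted p = 0.0828 in edgeR). The metallothionein gene Mt3 averaged 7281 ± 701 CPM in DTA (SD, n = 3) and 4142 ± 1341 CPM in CTRL (SD, n = 2), with an edgeR adjusted p of 0.0828. The tubulin gene Tubb2b averaged 315 ± 57.4 CPM in DTA (SD, n = 3) and 704 ± 385 CPM in CTRL (SD, n = 2), with an edgeR adjusted p of 0.148. Ppp1r11, a phosphatase regulator, had 149, 88.9 and 101 CPM in DTA, against 264 and 259 CPM in CTRL. Ddit4, a stress-induced inhibitor of the growth regulator mTOR, averaged 126 ± 84.3 CPM in DTA (SD, n = 3) and 265 ± 222 CPM in CTRL (SD, n = 2).

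Of the fibrous and pial list 0 of 9 tested genes changed with genotype, with a median of 0.04 beside -0.01 over all genes, and of the grey matter list 0 of 13, with a median of 0.02. Igfbp5 was nearest, at 1.31 (SE 0.40, edgeR adjusted p = 0.122). Of the immediate early list 0 of 10 changed, with a median of 0.84, and 8 of the 10 were positive. Among reactive genes 0 of 2 changed.

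**Figure D5:**
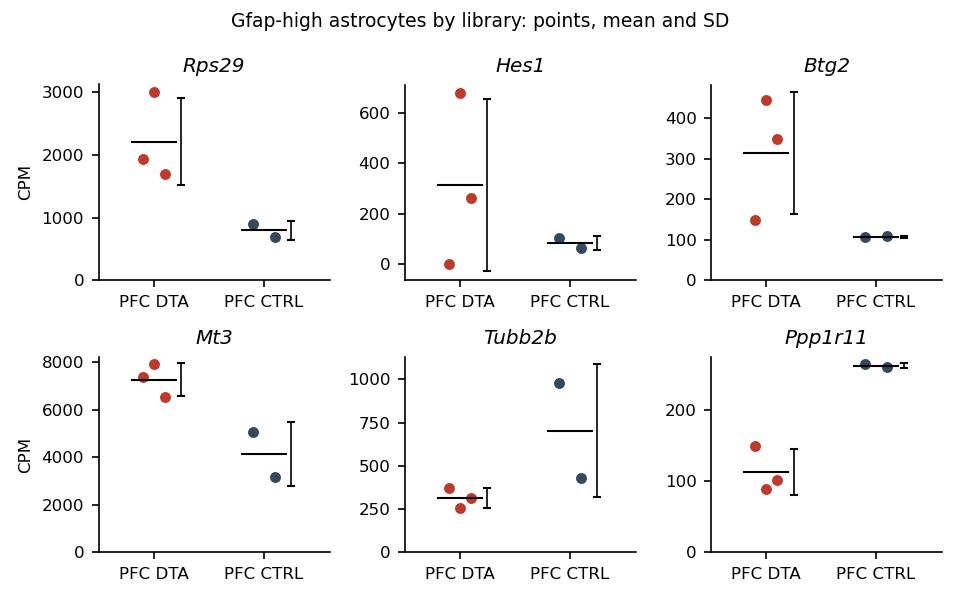
CPM of 6 genes in the Gfap-high astrocytes of 3 PFC DTA and 2 PFC CTRL libraries, with the mean as a line and the SD as a bar. Rps29 lies at 1696 to 3006 CPM in DTA and at 691 to 897 CPM in CTRL, and Hes1 overlaps between the genotypes.

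The MC members could be described only coarsely, since 4 cells carried them. Those cells held 60 UMIs of Gfap, 53 of Aqp4, 32 of Myoc and 10 of Vim. All 3 members of MC DTA had Myoc and Vim, and the 1 member of MC CTRL had no UMI of Vim, while its table has no Myoc row. Of 781 genes tested against the PFC in edgeR with genotype as a term 0 were higher and 3 lower (0.384%), and 50 had an unadjusted p under 0.05. The 3 were immediate early genes.

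Fos, a component of the AP-1 factor, had 0 UMIs in the MC members, against 2312, 2793 and 2246 CPM in PFC DTA replicates 1 to 3 and 1055 and 1813 CPM in PFC CTRL replicates 1 and 2. With a floor of 3 UMIs over the MC members, or 197 CPM, Fos was at least 10.4-fold lower in the MC than the PFC mean (edgeR adjusted p = 1.6e-05). In the same edgeR fit Junb, a partner of Fos, was at least 3.88-fold lower than its PFC mean (adjusted p = 0.0059). Dusp1, a phosphatase of MAP kinases, was at least 2.98-fold lower than its PFC mean (adjusted p = 0.0336). Members of the PFC libraries ranged from 264 to 1633 CPM for Junb and from 224 to 820 CPM for Dusp1. The lowest of these values lay close to the floor of 197 CPM. In the other astrocytes of the MC, Fos stood at 577 CPM in DTA and 548 CPM in CTRL, against a range of 172 to 2108 CPM over the 5 PFC libraries. The low end of that range was PFC DTA replicate 3 alone. Both MC values lay below those of every other PFC library, so lower Fos in the MC was not confined to members. Without PFC DTA replicate 3 only Fos was called, without MC CTRL Fos and Junb, and without MC DTA, which leaves 1 MC cell, 46 genes were lower. DESeq2 called Fos alone. The class by area term was called for 1 of 6672 genes (0.015%), the haemoglobin gene Hba-a2, and not for Fos (-11.88, SE 2.92, edgeR adjusted p = 0.207).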

How the data were processed

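Cells of 7 libraries were measured with 10x Genomics 3' chemistry. The deposited tables hold raw UMI counts per gene and cell, which the authors made; the submitters' processing notes list Cell Ranger 3.0.2, Seurat and mm10 without saying what each did. A gene without a row in a table was counted as 0. The smallest number of genes in a cell was 501 to 503 in each library, and how cells were filtered before deposit is not stated.

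From these counts, cells were chosen by the rule of the report and summed per library and class. A library entered a fit with at least 10 members; for the areas all 7 entered. Tests ran in edgeR 4.0.16 under R 4.3.3 as robust quasi-likelihood fits with TMM scaling, a minimum of 10 counts in filterByExpr and Benjamini-Hochberg adjustment at 0.05. The SE is the absolute log2 difference over the root of F. DESeq2 1.42.0 was a second tool, and Scrublet in scanpy 1.11.5 gave doublet calls, whose cells were kept. The fits were also run on simulated counts with known changes, and the outcome is not given here. The labels speak of a brain for each sample but number no animals, so the spread between libraries may be technical. The edgeR p-values rest on that spread pooled over genes, with 4 residual degrees of freedom for members against other astrocytes. A small p thus does not measure the spread of a single gene over libraries alone. Intervals and floors cover counting error only.

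Named genes are the 15 largest folds higher and 10 lower among genes past the threshold, with at least 50 CPM in the higher class and one direction in every library. For genotype and area they are the 5 largest called folds each way at 20 CPM or more, or the 3 smallest p each way where fewer than 2 were called. Lists give up to 6 called genes by p, or the 2 smallest p. Ribosomal, blood and predicted genes are counted, not named, except for calls among 5 or fewer. S100a10, Crym, Hopx, Mfap3l, Fxyd1, Lhx2, Hmgcs1, Slc1a2, Tsc22d3, Gria2, Igfbp5 under genotype, the markers given at 0 and the genes shown by Gfap count or by Myoc were added after their values were seen. The members and lists were chosen with earlier results of these data known.

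Alternatives were RLE size factors, no filter on low counts, DESeq2, other Gfap thresholds, doublet calls left out, cells thinned to 2000 UMIs, other astrocytes matched in UMIs or without Gfap, all libraries, no library block, the replicate number as a block, and each library left out. The areas' shares, the members without Myoc and those whose tables list Myoc were added after seeing the data.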

Additional observations from a re-analysis of the deposited data

Results flagged for a closer look

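A pair of genes stood out because the difference between members and other astrocytes was not the same in all groups. For the haemoglobin gene Hbb-bs the class by genotype term in the PFC was -4.20 on the log2 scale (SE 0.75, edgeR adjusted p = 0.00018). Haemoglobin genes took 0.0149%, 0.0133% and 0.0311% of member UMIs in PFC DTA replicates 1 to 3 and 0.0185% and 0.0388% in CTRL replicates 1 and 2. In the other astrocytes they took 0.0320%, 0.0250% and 0.816% in DTA and 0.0118% and 0.0400% in CTRL, so that DTA replicate 3 alone was high. Without that library, DTA replicate 1 or either CTRL library, Hbb-bs was not called. For Hba-a2, another haemoglobin gene, the class by area term was 4.96 (SE 1.08, edgeR adjusted p = 0.0308), and the MC members on which it rests are 4 cells. Haemoglobin genes took 0.0598% and 0.106% of UMIs in the members of MC DTA and MC CTRL, against 0.0434% and 0.0495% in their other astrocytes. Hba-a2 was not called without PFC DTA replicate 2 or 3, PFC CTRL replicate 1 or either MC library. Both genes lie outside the naming rule and were chosen after their values were seen. Groups held 3 libraries at most, too few for a check on single outlying libraries.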

How the results depend on the processing

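The counts of genes that set members apart depended on the setting. Of the 718 called genes those that could be tested kept their direction under each setting, except that 695 of 701 did in thinned cells. The settings share most cells and the genes were chosen as called, so kept direction was largely fixed in advance. Higher and lower genes numbered 200 and 410 without a filter, 126 and 111 with other astrocytes matched in UMIs, 208 and 213 in DESeq2, 184 and 102 in cells thinned to 2000 UMIs, 191 and 399 with all libraries and 190 and 225 without the library block, against 328 and 390; leaving out 1 library gave 169 to 453 and 203 to 401. Of 365 values of the 25 named genes under 16 settings 360 kept direction and call, 5 kept direction only and 0 changed sign. The naming rule, which asks for a call and the same direction in every library, largely fixed this. DESeq2 gave no adjusted p for Gdf10. Ptgds changed sign in thinned cells (0.051). RLE factors gave 327 higher and 523 lower and moved the median of all genes to -0.16.

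Of the 2 genes higher in DTA members, 1 was left with RLE factors and 0 without a filter, in DESeq2, with Gfap thresholds of 2 or 5 and in thinned cells; leaving out 1 library gave 0 to 6 higher and 0 to 1 lower. Same-numbered PFC libraries correlated at 0.001 and -0.029 in their deviations. With 2 CTRL libraries these deviations mirror each other, so the correlations cannot tell whether the numbers pair the libraries. With the replicate block 0 genes were called. The 3 genes lower in MC members became 1 without a filter, in DESeq2 and in thinned cells and 6 with Gfap at 2 or more, and 1 to 46 with 1 library left out. The class by genotype term had 2 higher and 0 lower with matched cells and 0 lower with RLE factors, and 0 to 4 higher and 0 to 1 lower with 1 library left out. The class by area term had 0 higher without a filter and 0 higher and 2 lower with matched cells, and 0 to 1 higher and 0 to 19 lower with 1 library left out. The PFC difference in shares, 3.42 points, was -3.64 in thinned cells and 0.332 to 5.37 with 1 library left out. Thinning left only 2 libraries for the comparison of classes. Except where a setting leaves fewer cells or libraries, the cause was not tested. Depth limits genes under about 200 CPM in the MC members, where 3 UMIs amount to 197 CPM.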
